A study of Homo sapiens with 8 samples.

Results

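Expression of 10 genes, 7 matrix metalloproteinases (MMP1, MMP2, MMP3, MMP9, MMP10, MMP13 and MMP14) and 3 tissue inhibitors of metalloproteinases (TIMP1, TIMP2 and TIMP3), was examined in mammary epithelial cells grown in 3D hydrogels. The genes were taken by name, with earlier results of these data known, and all 10 were found among the 25369 gene symbols measured. Cells of the human line MCF10A, which does not form tumours, had been encapsulated for 7 days in 4 kinds of gel, and RNA-seq was performed on 2 libraries per gel, taken here as 1 from each of 2 trials by their replicate numbers. Soft IPNs were interpenetrating networks of reconstituted basement membrane (rBM) and alginate without calcium, and stiff IPNs held the same components with the alginate crosslinked by calcium. Soft col:rBM gels combined rBM with a low density of type I collagen (col-1), whereas stiff col gels held dense col-1 and are named without rBM. The paper states the same rBM concentration for all experiments, so whether stiff col gels lacked rBM is not settled here. Stiff col and stiff IPN differ in col-1, alginate, calcium and possibly rBM, whose effects cannot be told apart. The collagen gels differ from each other in col-1 density and possibly rBM as well as in stiffness. Soft and stiff IPNs differ in calcium as well as in stiffness. Differences between stiff and soft gels are called stiffness effects or differences below, but stiffness and composition cannot be told apart in them.

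MMPs are zinc-dependent endopeptidases that cleave components of the extracellular matrix. Most are secreted as inactive proenzymes and gain activity when the propeptide is removed by plasmin, by other MMPs or, for the membrane-anchored enzymes, by furin inside the cell. TIMPs bind the active site of MMPs and block it, and TIMP2 also takes part in the activation of MMP2 at the cell surface by MMP14. In the mammary gland these enzymes are known for their part in branching of the ducts, in involution and in the breaching of the basement membrane by carcinoma cells. Messenger RNA levels show neither how much enzyme was secreted nor how much of it was active.

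Values are normalized counts, that is, read counts that were multiplied by 1 factor per library and rounded. The factors were not given and were estimated from whole numbers that are missing or occur too often in each library. By this estimate, on which the limit of detection also rests, 13065615 to 18583116 reads per library were counted on genes, with the fewest in stiff IPN replicate 2. The limit of detection was set at 3 reads, equal to 2.41 to 3.73 normalized counts across the libraries, and covers counting error only. Tests were run in limma on log2(normalized count + 1) for the 13369 genes that reached 10 normalized counts in 2 or more libraries, and a gene was called at a Benjamini-Hochberg adjusted p under 0.05 over all of them. Of the 10 genes 8 passed this filter, and MMP3 and MMP13 did not. Each test was run without and with the trial as a block, a term that removes the difference between trials. The differences between trials correlated across genes with r of 0.278 to 0.398 in the 3 pairs of gels that include stiff IPN, against 0.654 to 0.819 in the 3 other pairs, which does not show which of the stiff IPN libraries differs. As these are bulk libraries, fewer cells that express a gene and less RNA per cell cannot be told apart.

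Of the genes, 4 (MMP10, MMP1, MMP3 and MMP13) lie in a cluster of 9 MMP genes on the long arm of chromosome 11, which spans 435.2 kb from 102391239 to 102826461 in hg19 (GENCODE 44 lifted to this build). MMP10 (102641233 to 102651359) and MMP1 (102660132 to 102668891) are neighbouring MMP genes on the minus strand. MMP14 lies on chromosome 14 (23305769 to 23318250), MMP2 on chromosome 16 (55423612 to 55540603), MMP9 on chromosome 20 (44637547 to 44645200), TIMP1 on chromosome X (47441807 to 47446188), TIMP2 on chromosome 17 (76849059 to 76921469) and TIMP3 on chromosome 22 (33197691 to 33259028). Some reads of these genes could come from other transcripts. Exons of the antisense transcript SLC12A5-AS1 cover 18.4% of the exon bases of MMP9, and those of an antisense long non-coding RNA without a name cover 5.91% of TIMP2. Exons of the antisense pseudogene WTAPP1 cover 8.14% of MMP1 and 1.73% of MMP3. Whether counting used the strand is not given in the sources used here, so antisense reads cannot be told apart, although WTAPP1 itself was listed at 0 or 1 in each library. On the same strand, exons of CEP295NL cover 3.61% of TIMP2 and those of an unnamed transcript 3.7% of MMP2, which counting by strand would not resolve. MMP10 and MMP3 share 59 stretches of 50 bases (3.36% of those in MMP10). As only uniquely aligned reads were kept, reads within these may have been lost and not counted for the other gene. TIMP2 shares 175 stretches with CEP295NL and MMP2 shares 128 with the unnamed transcript, the same transcripts whose exons overlap theirs.

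Promoter sequences of 4 of the 10 genes (MMP10, MMP14, TIMP1 and TIMP3) were taken from RefSeq (GRCh38.p14), and those of MMP1, MMP2, MMP3, MMP9, MMP13 and TIMP2 were missing from the table used. Shown 5′ to 3′ are the promoters of the inducible, low-level MMP10, whose counts ran alongside those of its neighbour MMP1, and of the abundant MMP14. Capitals mark matches, on either strand, to the AP-1 motif TGANTCA, the TATA box TATAAA and the GC box GGGCGG.
MMP10, chr11:102780579-102780878, minus strand: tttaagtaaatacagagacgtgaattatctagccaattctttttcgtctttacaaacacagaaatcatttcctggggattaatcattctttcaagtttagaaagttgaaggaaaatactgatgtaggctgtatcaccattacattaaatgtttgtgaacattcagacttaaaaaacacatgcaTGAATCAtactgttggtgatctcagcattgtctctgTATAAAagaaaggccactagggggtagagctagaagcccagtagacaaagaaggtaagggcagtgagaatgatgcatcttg
MMP14, chr14:22836335-22836634, plus strand: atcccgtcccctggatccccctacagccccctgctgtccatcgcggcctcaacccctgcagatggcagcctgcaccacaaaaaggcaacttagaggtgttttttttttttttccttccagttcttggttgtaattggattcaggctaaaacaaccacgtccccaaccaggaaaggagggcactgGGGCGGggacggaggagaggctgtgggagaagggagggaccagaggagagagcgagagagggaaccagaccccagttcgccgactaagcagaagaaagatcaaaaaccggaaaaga
The MMP10 window holds 1 AP-1 match, 67 bases before the start of the gene, and 1 TATA box 31 bases before it, and 36.3% of its bases are G or C. In the MMP14 window there is 1 GC box, no match to the other motifs, and a G and C content of 55.0%. The windows of TIMP1 and TIMP3 hold 2 and 5 GC boxes and neither of the other motifs. Among the 35116 promoters of this length, 7.71% hold the AP-1 motif, 11.5% the TATA box and 45.0% the GC box. A match shows only that these letters are present.

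Per kilobase of exon, TIMP1 had the highest level of the 10 genes, with a mean over the 8 libraries of 7519 normalized counts and a range of 4195 to 12761. MMP14, a membrane-anchored collagenase, followed with 1350 (788 to 1789) and TIMP3, an inhibitor that binds to the matrix, with 1321 (938 to 1817), and the ranges of these neighbours overlapped almost entirely. TIMP2 had 451 (297 to 688). The gelatinase MMP2 lay far lower at 39.3 (14.0 to 93.1), and stromelysin MMP10 (27.3) and collagenase MMP1 (21.0) lower still, with overlapping ranges. This order holds for the means. In both soft IPNs MMP10 (35.2 and 33.5) and MMP1 (27.8 and 31.4) were above MMP2 (26.3 and 30.2), whereas in stiff col MMP2 was above both. MMP9, the other gelatinase, had a mean of 7.17. Measured per kilobase of the longest transcript instead, only MMP10 (27.3) and MMP1 (29.2) changed places among the 10 genes. MMP28, a secreted MMP of epithelia outside the 10 genes, had 650 per kilobase, between TIMP3 and TIMP2.

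**Figure D1:**
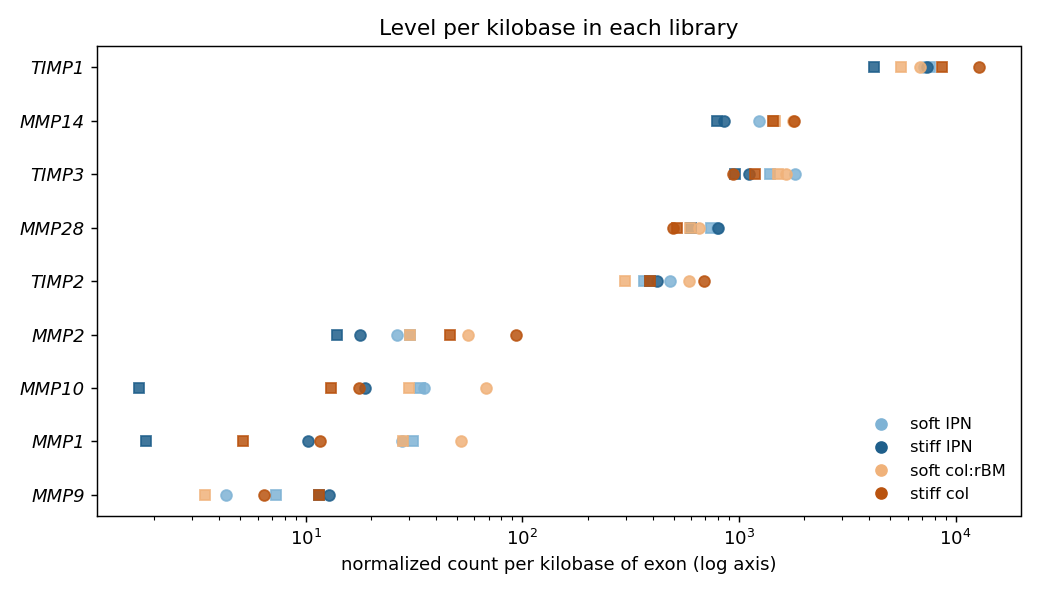
Normalized count per kilobase of exon on a log axis, 1 row per gene, for the 8 tested genes and MMP28; circles are trial 1, squares trial 2, and colours the 4 gels. TIMP1, MMP14, TIMP3, MMP28 and TIMP2 lie at 297 or above in every library and the other genes at 93.1 or below; the 0 of MMP9 in soft col:rBM replicate 1 cannot be drawn.

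MMP3 (stromelysin-1) and MMP13 (collagenase-3) were at or near 0. MMP3 had 1 normalized count in 5 libraries and 0 in 3, and MMP13 had 1 in stiff col replicate 1 and 0 elsewhere. All of these values are under the limit of detection, so no difference between gels was detectable at this depth and no fold change is given.

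Without the block, none of the 8 tested genes was called in the 4 pairs of gels compared, and 0% of all genes tested were called in each of them. Stiff col against soft IPN and stiff IPN against soft col:rBM were not tested. At an unadjusted p under 0.05 there were 4 of the 8 genes and 1245 of all genes between stiff and soft IPN, 3 and 838 between stiff col and stiff IPN, 4 and 140 between stiff col and soft col:rBM, and 0 and 190 between soft col:rBM and soft IPN. In the F test over the 4 gels, 5 of the 8 genes and 702 of all genes were under 0.05 unadjusted, and 0% were called. The calls given for gels all come from limma with the trial as a block. Exact permutation of 2 libraries against 2 yields no two-sided p below 0.333. The p of limma comes from a fitted model and not from permutation, and can be lower. With the block the F test called 1.58% of all genes and none of the 8 (adjusted p from 0.0526 to 0.612), while 7 of the 8 and 2645 of all genes had an unadjusted p under 0.05.

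**Figure D2:**
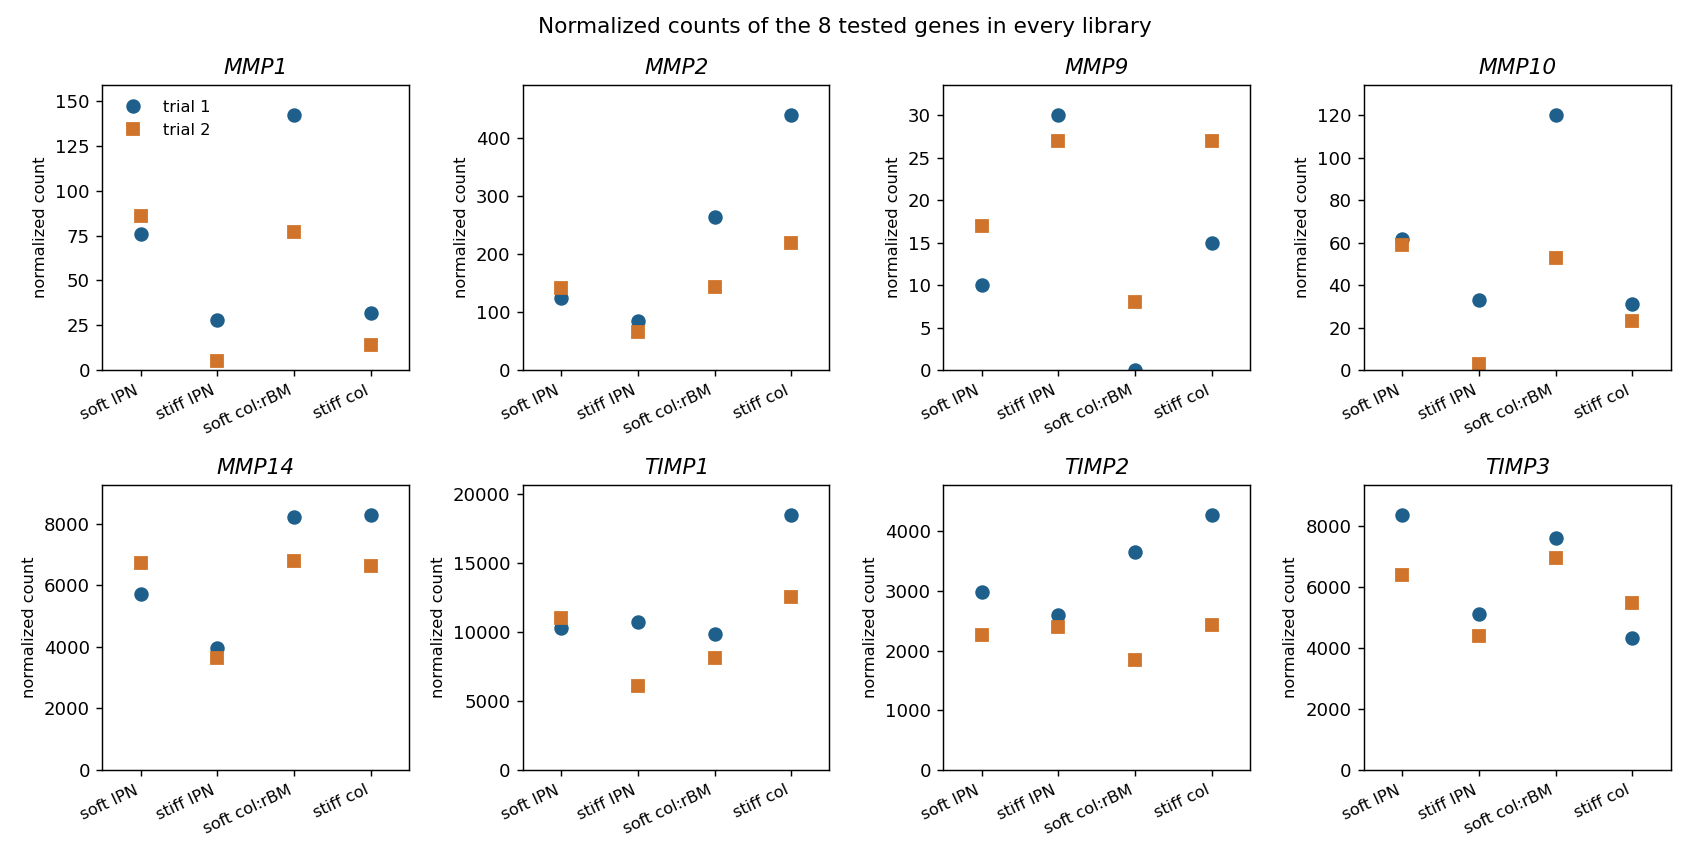
Normalized counts of the 8 tested genes in every library, on linear axes from 0, by gel (horizontal axis) and trial (circles, trial 1; squares, trial 2). MMP1 and MMP10 are lower in both stiff gels than in both soft gels, MMP2 is highest in stiff col replicate 1 at 438 and lowest in stiff IPN replicate 2 at 66, and MMP14 is lowest in the stiff IPNs.

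MMP1, which cleaves fibrillar collagen, had 76 and 86 normalized counts in the soft IPNs (trials 1 and 2) and 28 and 5 in the stiff IPNs. In the collagen gels it had 142 and 77 in soft col:rBM and 32 and 14 in stiff col. Every library from a stiff gel was thus below every library from a soft gel. Stiff IPN replicate 2, at 5, was close to the limit of detection of 3.28 for that library. From soft to stiff IPN the log2 fold change was -2.63 (SE 0.52), -1.41 in trial 1 and -3.86 in trial 2. With the block this was called (adjusted p = 0.0393, and 0.00339 to 0.438 over 14 alternatives of that fit). Without the block it was not (adjusted p = 0.493). The call was lost without soft IPN replicate 1 (0.0508) and without soft IPN replicate 2 (0.438), and also without trend or robust moderation (0.1), and over the runs without 1 library the log2 fold change lay between -3.46 and -1.80, the values without stiff IPN replicates 1 and 2. Between the collagen gels the log2 difference, stiff col minus soft col:rBM, was -2.25 (SE 0.52; -2.12 and -2.38 in the trials) and was not called (adjusted p = 0.682 with the block, and 0.0589 to 1 over the alternatives of both fits). The test of the difference between these stiffness effects gave 0.39 (SE 0.74, adjusted p = 0.898 with the block, 0.24 to 1 over the alternatives).

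MMP10, a stromelysin that can activate proMMP1, had 62 and 59 normalized counts in soft IPN and 33 and 3 in stiff IPN. In soft col:rBM it had 120 and 53, and in stiff col 31 and 23. As for MMP1, no library of a stiff gel reached the lowest library of a soft gel. The value of 3 in stiff IPN replicate 2 is under the limit of detection. Stiff and soft IPN differed by -2.40 on the log2 scale (SE 0.65; -0.89 in trial 1 and -3.91 in trial 2), which missed the threshold with the block (adjusted p = 0.0786, and 0.0023 to 0.999 over the alternatives of both fits). Without stiff IPN replicate 2 the difference was -0.86 in the fit without the block. The log2 difference between stiff col and soft col:rBM was -1.54 (SE 0.65, adjusted p = 1 with the block, 0.139 to 1 over the alternatives). In the fit without the block it was -0.96 and -2.13 without soft col:rBM replicates 1 and 2 in turn. In the 7 libraries with both genes above the limit of detection, the ratio of MMP1 to MMP10 counts ran from 0.609 to 1.46.

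Because MMP1 and MMP10 were lower in each stiff gel, the mean of both stiff gels was also compared with that of both soft gels, a comparison added after the values were seen. These values prompted the comparison, so its p is no independent test of MMP1 or MMP10. MMP1 was under the threshold with the block (log2 difference -2.44, SE 0.37, adjusted p = 0.0411, and 0.00166 to 0.314 over 14 alternatives). MMP10 was not (-1.97, SE 0.46, adjusted p = 0.0928, and 0.00184 to 1 over the alternatives of both fits), and without stiff IPN replicates 1 and 2 in turn its difference was -2.74 and -1.20 in the fit without the block. TIMP3 was not either (-0.61, SE 0.13, adjusted p = 0.084, and 0.0224 to 1). With the block 1 of the 8 genes and 0.598% of all genes passed, and without the block 0 of 8 and 0% were called, with 5 of 8 and 923 genes under 0.05 unadjusted. Of the 8 genes, 3 (MMP1, MMP10 and TIMP3) had no overlap between stiff and soft gels, as did 4.52% of all genes. MMP1 missed the threshold without trend or robust moderation (0.122) and in 5 of the 8 runs that each left out 1 library: soft IPN replicate 2 (adjusted p = 0.314), soft col:rBM replicates 1 and 2 (0.0724 and 0.0622) or stiff col replicates 1 and 2 (0.0847 and 0.121).

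MMP2, which cleaves denatured collagen and type IV collagen of basement membranes, had its highest values in the collagen gels. It had 438 and 219 normalized counts in stiff col and 263 and 143 in soft col:rBM. The soft IPNs had 124 and 142, and the stiff IPNs 84 and 66. All 4 collagen libraries were above all 4 IPN libraries, although soft col:rBM replicate 2 exceeded soft IPN replicate 2 by a single normalized count. From stiff IPN to stiff col MMP2 rose by 2.04 on the log2 scale (SE 0.30; 2.37 in trial 1 and 1.71 in trial 2). This was called with the block (adjusted p = 0.020, and 0.00605 to 0.179 over 15 alternatives of that fit) and not without it (adjusted p = 0.330). The call was lost without stiff col replicate 1 (adjusted p = 0.179), where the rise was 1.71, and without trend or robust moderation (0.0644). Over both collagen gels against both IPNs the log2 fold change was 1.29 (SE 0.22; 1.72 and 0.86 in the trials), called with the block (adjusted p = 0.0418, and 0.0155 to 0.273 over 15 alternatives) and not without it (0.443). This call was lost without soft IPN replicate 1 (0.273) or 2 (0.0812), without soft col:rBM replicate 1 (0.107) and without stiff col replicate 1 (0.163), with a filter of 10 in every library (0.0541) and without trend or robust moderation (0.0993). MMP2 was the 1 gene called and the 1 gene of 8 without overlap, while the block fit called 0.928% of all genes and 3.32% had no overlap. Neither stiff against soft IPN (-0.82, SE 0.30, adjusted p = 0.149 with the block, 0.0925 to 0.999 over the alternatives of both fits) nor soft col:rBM against soft IPN (0.54, SE 0.30, adjusted p = 1, 0.509 to 1) was called.

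MMP14, the cell-surface activator of proMMP2, was lowest in the stiff IPNs. It had 5720 and 6708 normalized counts in soft IPN, 3950 and 3644 in stiff IPN, 8215 and 6776 in soft col:rBM, and 8271 and 6629 in stiff col. The stiff IPN libraries were below all 6 others, a pattern whose share among all genes was not counted. From stiff IPN to stiff col MMP14 rose by 0.96 (log2, SE 0.17; 1.07 and 0.86 in the trials), which was called with the block (adjusted p = 0.0327, and 0.0164 to 0.337 over 15 alternatives of that fit) and not without it (0.353). The call was lost without stiff col replicate 1 (0.337) and without stiff col replicate 2 (0.102), and also without trend or robust moderation (0.0943). Between stiff and soft IPN the log2 difference of -0.71 (SE 0.17) was not called (adjusted p = 0.0597 with the block, 0.0423 to 0.999 over the alternatives of both fits). Soft col:rBM was 0.27 above soft IPN (SE 0.17, adjusted p = 1, 0.556 to 1), most of it in trial 1 (0.52 against 0.01 in trial 2).

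MMP9, which cleaves denatured and type IV collagen, had few reads. It had 10 and 17 normalized counts in soft IPN, 30 and 27 in stiff IPN, 0 and 8 in soft col:rBM, and 15 and 27 in stiff col. Both libraries of each stiff gel were above both libraries of the soft gel of the same kind, IPN or collagen, and soft col:rBM was lowest. None of these differences was called. The log2 difference was 2.82 between the collagen gels (SE 0.74, adjusted p = 0.826 with the block, 0.183 to 1 over the alternatives of both fits). It was 1.07 between the IPNs (SE 0.74, adjusted p = 0.402, 0.169 to 0.999) and -2.23 for soft col:rBM against soft IPN (SE 0.74, adjusted p = 0.858, 0.296 to 1). The first moved from 1.23 to 4.40 when soft col:rBM replicates 1 and 2 were left out in turn without the block, and the last from -0.64 to -3.81. With a pseudocount of 5 the first was 1.65 and the last -1.17.

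TIMP1, a soluble inhibitor of most MMPs, was highest in stiff col. It had 18453 and 12538 normalized counts there and 9868 and 8117 in soft col:rBM. The soft IPNs had 10283 and 10970, and the stiff IPNs 10680 and 6066. Both stiff col libraries were above all 6 others, and the share of all genes with this pattern was not counted. The log2 difference was 0.92 (SE 0.21) from stiff IPN and 0.76 (SE 0.21) from soft col:rBM, and neither was called (adjusted p = 0.0714 and 0.899 with the block, 0.0109 to 1 and 0.167 to 1 over the alternatives of both fits). In the fit without the block, the first was 1.33 and 0.51 without stiff IPN replicates 1 and 2 in turn. The second was 0.49 and 1.04 without stiff col replicates 1 and 2 in turn. Soft col:rBM was below soft IPN by a difference of -0.25 (SE 0.21, adjusted p = 1, 0.612 to 1).

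TIMP3, which also inhibits several ADAM proteases, had 8352 and 6402 normalized counts in soft IPN and 7609 and 6960 in soft col:rBM. It had 5100 and 4391 in stiff IPN and 4313 and 5462 in stiff col. All 4 libraries of stiff gels were below all 4 of soft gels, by -0.63 on the log2 scale in the IPNs (SE 0.19, adjusted p = 0.0976 with the block, 0.0549 to 0.999 over the alternatives of both fits) and -0.58 in the collagen gels (SE 0.19, adjusted p = 1, 0.342 to 1), and neither difference was called. TIMP2 had 2981 and 2268 normalized counts in soft IPN, 2588 and 2401 in stiff IPN, 3648 and 1842 in soft col:rBM, and 4269 and 2423 in stiff col. Its gels overlapped in each comparison, with log2 differences in the 4 pairs of gels from -0.06 to 0.37. TIMP2 was instead lower in trial 2 than in trial 1 in every gel, by a log2 difference of -0.58 (SE 0.15), the 1 gene of the 8 called between trials (adjusted p = 0.0272, and 0.00209 to 0.130 over 15 alternatives). It was also the 1 gene of 8 without overlap between trials, and 27.1% of all genes were called and 19.8% had no overlap. This call was lost without trend or robust moderation (0.0706) and without any 1 of the 6 libraries of the other gels, adjusted p 0.079 to 0.13, and was kept without either stiff IPN library. The other 7 genes differed between trials by -1.18 to 1.14.

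**Figure D3:**
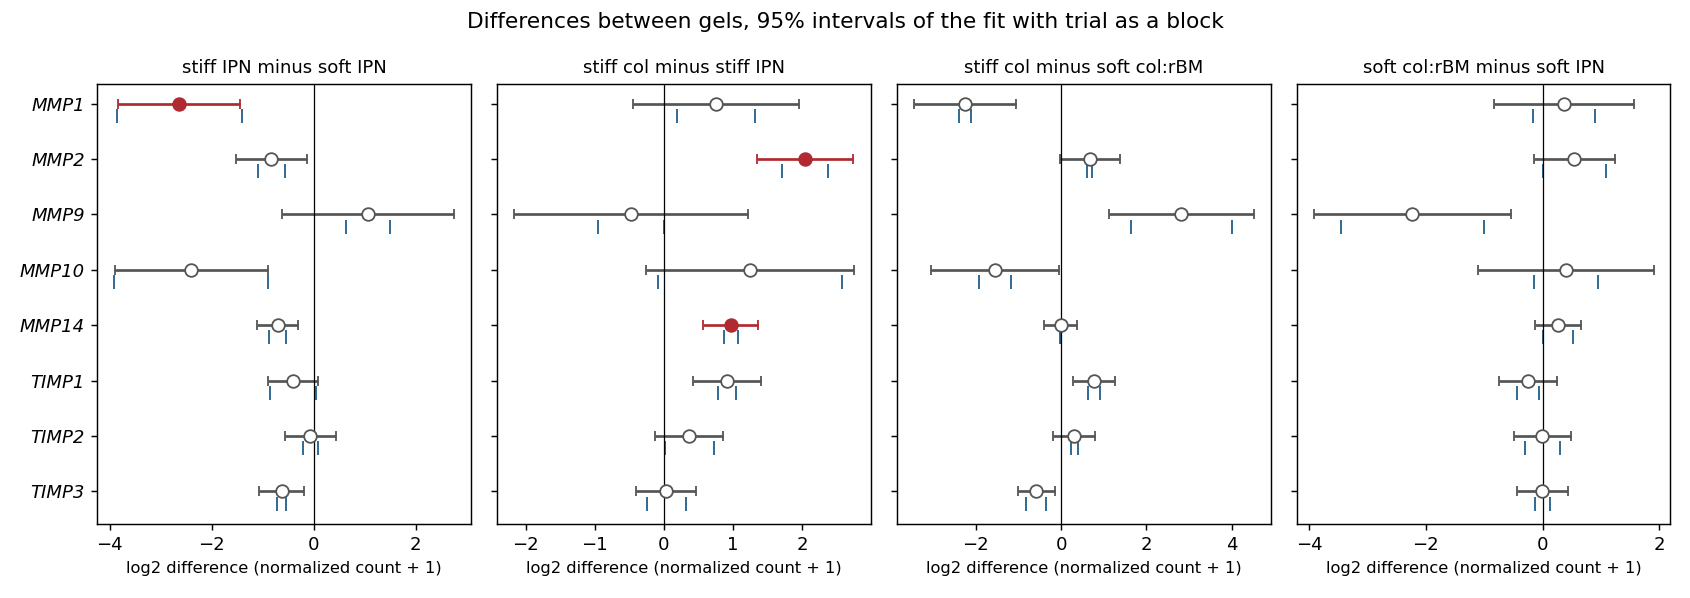
Log2 differences of the 8 tested genes in the 4 pairs of gels, with 95% intervals from the fit with the trial as a block; filled red circles passed an adjusted p of 0.05 in that fit, open circles did not, and the ticks under each circle are the differences within each trial. MMP1 is called in the first panel, MMP2 and MMP14 in the second, and none in the other panels.

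Read together, 7 of the 8 genes were lower in stiff than in soft IPN as a mean of the trials. The median log2 difference of the 8 was -0.67, against -0.006 for all genes tested. TIMP1 was higher in trial 1 (0.055) and TIMP2 in trial 2 (0.082), and both changed sign in some runs without 1 library. The libraries of the IPNs did not overlap for 6 of the 8 genes and for 41.9% of all genes, and the block fit called 1 of 8 and 3.82%. From stiff IPN to stiff col 7 of 8 were higher (median 0.84, against 0.004 for all genes), 3 of 8 and 30.9% of all genes did not overlap, and 2 of 8 and 2.47% were called with the block. Of those higher, MMP1, MMP10, TIMP2 and TIMP3 were lower in some runs without 1 library, and MMP10 and TIMP3 also in trial 1. Between the collagen gels 4 of 8 were higher in stiff col (median 0.15, against -0.004), 5 of 8 and 19% did not overlap, and with the block 0 of 8 and 0% were called, with 5 of 8 and 497 genes under 0.05 unadjusted. Between soft col:rBM and soft IPN 4 of 8 were higher (median 0.13, against -0.003), 4 of 8 and 20.7% did not overlap, and 0 of 8 and 0.0224% were called with the block. The difference between the stiffness effects in collagen gels and in IPNs was positive for all 8 tested genes as a mean of the trials (median 0.78, against 0.01). In trial 1 it was negative for MMP1, MMP10 and TIMP3, and for these and TIMP2 it was negative in some runs without 1 library. For this difference none was called with or without the block, and with the block 0.015% of all genes were called. Without the block 0% were, with 2 of 8 and 278 genes under 0.05 unadjusted. The 4 pairwise comparisons share libraries, so these counts are not independent of each other.

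Ratios between genes were compared within libraries, where library scaling and gene length drop out of the comparison. The ratio of MMP2 to TIMP2 counts was 0.103 and 0.0904 in stiff col, 0.0721 and 0.0776 in soft col:rBM, 0.0416 and 0.0626 in soft IPN, and 0.0325 and 0.0275 in stiff IPN. These pairs did not overlap between any of the 4 gels, but how often ratios of other genes do so was not counted. With 2 libraries per gel, 19% to 41.9% of single genes did not overlap in the 4 pairs of gels compared. MMP14 to TIMP3 overlapped between the IPNs (0.68 and 1.05 in soft IPN, 0.77 and 0.83 in stiff IPN). The ratio of TIMP1 to TIMP3 was 4.28 and 2.30 in stiff col and from 1.17 to 2.09 in the 6 other libraries. MMP14 to TIMP2 was lowest in the stiff IPNs (1.53 and 1.52) and higher in trial 2 than in trial 1 in the other gels, reaching 3.68 in soft col:rBM replicate 2. The ratios were not tested.

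**Figure D4:**
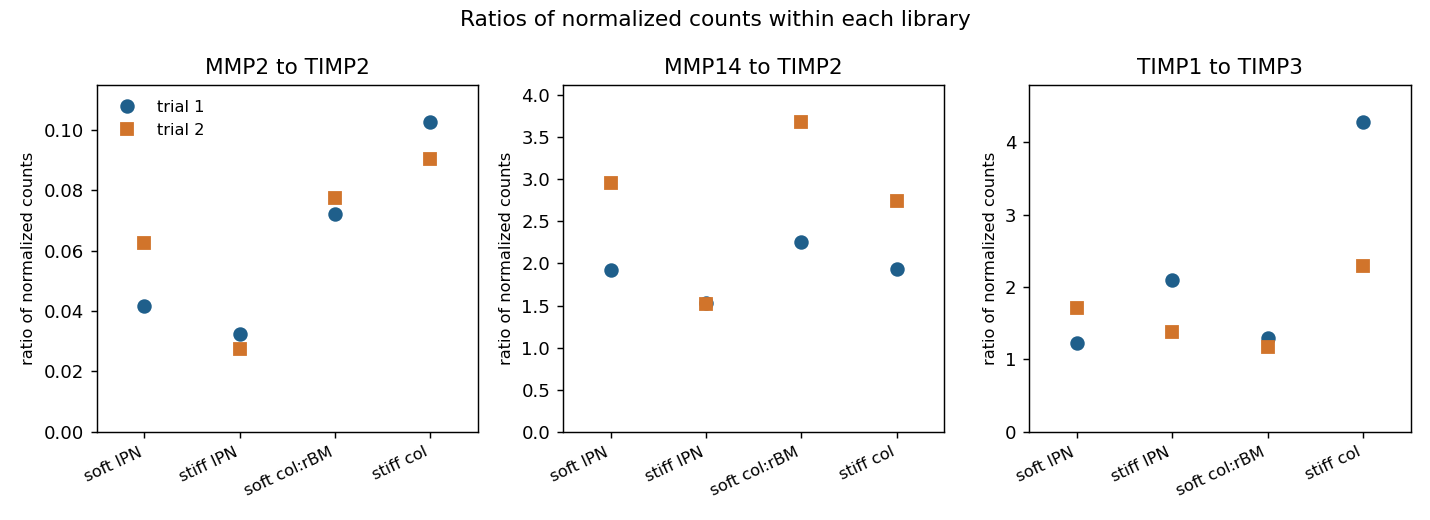
Ratios of normalized counts within each library, on linear axes from 0, by gel and trial (circles, trial 1; squares, trial 2). MMP2 to TIMP2 runs from 0.0275 in stiff IPN to 0.103 in stiff col, and TIMP1 to TIMP3 is highest in the stiff col libraries, at 4.28 and 2.30.

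Of 17 other genes of the family (16 MMPs and TIMP4), 8 were tested and 8 were at or under the limit of detection in every library, TIMP4 among them. MMP28 was the most abundant, with 1590 to 2559 normalized counts. With the block 1 of the 8 was called between the IPNs, MMP11 (stromelysin-3), against 3.82% of all genes, and none in the 3 other pairs compared. MMP11 had 105 and 64 in soft IPN and 44 and 14 in stiff IPN, a log2 fold change of -1.68 (SE 0.35, adjusted p = 0.044 with the block and 0.566 without it, and 0.0246 to 0.999 over the alternatives of both fits). Between trials MMP11 and MMP19 were called, both lower in trial 2 (-1.46 and -1.13), 2 of 8 against 27.1% of all genes. The median log2 difference of the 8 was 0.21 between the IPNs and -0.66 from stiff IPN to stiff col, against -0.006 and 0.004 for all genes tested.

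Plasmin, made from plasminogen by the urokinase PLAU and the tissue-type activator PLAT, removes the propeptides of several MMPs. Of 11 genes of this system 10 were tested, and the liver-made plasminogen gene PLG was at or under 1 in each library. With the block PLAU and the plasminogen activator inhibitor SERPINB2 were called in 2 comparisons, higher in stiff than in soft IPN (2 of 10 genes, against 3.82% of all genes) and higher in stiff IPN than in stiff col (2 of 10, against 2.47%). The median of the 10 was 0.14 between the IPNs and -0.15 from stiff IPN to stiff col, against -0.006 and 0.004 for all genes tested. PLAU had 1662 and 2092 in soft IPN, 3348 and 4474 in stiff IPN, 1394 and 1500 in soft col:rBM, and 1913 and 2131 in stiff col. Its log2 fold change was 1.05 between the IPNs (SE 0.14, adjusted p = 0.0189, and 0.00238 to 0.999 over the alternatives of both fits). SERPINB2 had 78 and 98 in soft IPN, 354 and 995 in stiff IPN, and 77 to 102 in the collagen gels, a log2 fold change of 2.75 between the IPNs (SE 0.35, adjusted p = 0.017, and 0.000387 to 0.999). Neither was called without the block (adjusted p = 0.41 for both).

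Among 18 activators, cofactors and other inhibitors of MMPs 17 were tested. With the block 2 of the 17 were called between the IPNs, against 3.82% of all genes, both higher in stiff IPN. These were LCN2, a lipocalin that binds MMP9 (26 and 20 in soft IPN, 258 and 441 in stiff IPN; log2 fold change 3.83, SE 0.37, adjusted p = 0.00669), and CLDN1, a tight junction protein (112 and 166 against 672 and 2761; 3.31, SE 0.38, adjusted p = 0.0131). From stiff IPN to stiff col 1 of 17 was called higher and 3 lower, against 2.47% of all genes. The log2 fold change was 1.34 for SPOCK1, -4.31 for CLDN1, -3.99 for LCN2 and -0.99 for the serine protease ST14, with adjusted p of 0.00527 to 0.0252 with the block and up to 1 over the alternatives. ST14 lies outside the naming rule and was chosen after its values were seen. The median of the 17 was -0.33 between the IPNs and 0.16 from stiff IPN to stiff col. Over the alternatives of both fits the adjusted p ran from 0.00125 to 0.999 for LCN2 and from 0.000366 to 0.999 for CLDN1 between the IPNs. Without the block neither was called (0.243 and 0.41). FURIN, which activates proMMP14, had 1880 to 2626 normalized counts and was not called.

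Of 21 genes for matrix proteins that MMPs cleave, 17 were tested. Between the IPNs 1 of 17 was called higher and 2 lower with the block, against 3.82% of all genes. Tenascin C (TNC) had 41 and 191 in soft IPN and 194 and 1118 in stiff IPN (log2 fold change 2.38, SE 0.24, adjusted p = 0.00816, and 0.00166 to 0.999 over the alternatives of both fits), and the laminin chain LAMB1 (-0.89) and COL17A1 (-0.87) were called lower. The IPNs overlapped for LAMB1 (20703 and 6982 in soft IPN, 9483 and 4414 in stiff IPN). They did not for COL17A1 (28378 and 28190 against 16935 and 14108), nor, by 3 normalized counts, for TNC. Fibronectin (FN1) had 7577 and 3936 in stiff IPN, 57569 and 23828 in stiff col, 28969 and 11569 in soft col:rBM, and 11610 and 9691 in soft IPN. From stiff IPN to stiff col the block fit called 3 of 17 higher and 1 lower, against 2.47% of all genes, FN1 (2.76), the type IV collagen chains COL4A2 (1.34) and COL4A1 (1.16), and TNC (-2.25), with adjusted p of 0.00527 to 0.0235 and up to 1 over the alternatives. COL4A1 lies outside the naming rule and was chosen after its values were seen. The median of the 17 was -0.50 between the IPNs and 0.45 from stiff IPN to stiff col. Of the fibrillar collagen genes COL1A1 had 168 to 333 normalized counts, COL3A1 was at 0 or 1, and COL1A2 and COL5A1 were at 0 in all 8 libraries.

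All 19 listed transcription factors known to act on MMP promoters were tested. Between the IPNs 16 of 19 were lower in stiff IPN (median -0.37, against -0.006 for all genes), and 2 of 19 were called with the block, against 3.82% of all genes, both of the AP-1 family. FOS had 2078 and 1412 in soft IPN and 1093 and 405 in stiff IPN (log2 fold change -1.36, SE 0.20, adjusted p = 0.0254, and 0.00112 to 0.999 over the alternatives of both fits). FOSL2 had 2263 and 2680 against 1389 and 822 (-1.20, SE 0.23, adjusted p = 0.0369, and 0.00103 to 0.999). From stiff IPN to stiff col RUNX2 (1.36) and JUNB (0.75) were called higher, 2 of 19 against 2.47% of all genes (adjusted p = 0.0297 and 0.0415 with the block, 0.861 and 0.789 without it, and up to 1 over the alternatives). The libraries of RUNX2 overlapped (133 and 33 in stiff IPN, 340 and 87 in stiff col). Binding of the factors was not measured. Between the collagen gels and between soft col:rBM and soft IPN, limma with the block called no gene of the 5 lists from other MMPs to transcription factors, against 0% and 0.0224% of all genes. Over both collagen gels against both IPNs, the block fit called PLAU, CLDN1, LCN2, ST14 and TNC lower and FN1 and JUNB higher, against 0.928% of all genes. Over both stiff against both soft gels it called PLAU, LCN2, CLDN1 and TNC higher and COL17A1 lower, against 0.598%. Between trials, where 27.1% of all genes were called, it called 1 higher and 1 lower of 10 in the plasminogen system, 2 and 5 of 17 activators and cofactors, 1 and 9 of 17 matrix genes, and 3 and 5 of 19 factors.

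Markers of cell types were read beside these genes. All 7 basal mammary markers were tested, and KRT5 had 7417 to 44022 normalized counts. Summed over the 7, they ran from 58013 in stiff col replicate 1 to 146880 in stiff IPN replicate 2. Of 8 luminal markers, PGR was at 0 in all libraries but 1 and KRT19 at 1 to 6, and the sum ran from 8098 to 13785. The sum of 2 pan-epithelial markers, CDH1 and EPCAM, was 4380 and 6054 in stiff IPN and 1407 and 1955 in stiff col. Fibroblast markers summed to 968 to 2186, with DCN the most abundant, THY1 at 0 throughout and LUM at 0 in all libraries but 1. Leukocyte and macrophage markers summed to 753 to 5826, with CD68, a lysosomal gene that epithelial cells also express, the most abundant, PTPRC at 0 and CD163 at 0 or 1. Endothelial markers summed to 39 to 270, with KDR the most abundant. Tested were 7 basal, 6 luminal, 2 pan-epithelial, 3 fibroblast, 4 leukocyte and 2 endothelial markers. From soft to stiff IPN both pan-epithelial markers were higher (median 0.865) and both endothelial markers lower (-1.162), while the other lists went both ways. Between the IPNs 1 luminal marker was higher in stiff IPN and 5 lower (median -0.23), 1 fibroblast marker higher and 2 lower (-0.11), 3 basal markers higher and 4 lower (-0.05), and 2 leukocyte markers higher and 2 lower (-0.58). There the block fit called KRT17 (1.88), FOXA1 (1.84), FAP (1.83) and CDH1 (0.91) higher in stiff IPN, and CD68 (-2.24), ITGB4 (-1.45) and CSF1R (-1.31) lower, against 3.82% of all genes. Between stiff IPN and stiff col it called COL6A3 (2.92), AREG (2.38) and CD68 (1.72) higher in stiff col, and KRT17 (-2.57), FAP (-1.76), EPCAM (-1.71), CDH1 (-1.63) and KRT14 (-1.52) lower, against 2.47%, while 2 luminal markers were higher and 4 lower (median -0.03). Between trials 5 of the 7 basal markers were called higher in trial 2 and 1 lower (median 0.97), against 27.1% of all genes, with KRT14 (1.94), KRT17 (1.80) and KRT5 (1.35) the largest. The block fit called 1 luminal, 2 leukocyte and 1 endothelial marker lower in trial 2, and no other. For both collagen gels against both IPNs the block fit called KRT17 (-1.83), EPCAM (-1.245) and CDH1 (-0.89) lower, against 0.928% of all genes. For both stiff against both soft gels it called KRT17 (1.14) higher and ITGB4 (-1.12) and CD68 (-1.28) lower, against 0.598%. The part of these differences in the MMP and TIMP results was not tested.

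The 3 tested genes with the widest range over the 8 libraries were MMP9 (4.95 on the log2 scale), MMP10 (4.92) and MMP1 (4.57). The range of MMP9 is set by its 0 in soft col:rBM replicate 1 and depends on the pseudocount. Among 10958 genes with a mean of at least 50 normalized counts, those whose log2 values followed MMP1 most closely were BCL9L (r = 0.993), AKT2 (0.981) and PAK2 (0.979). For MMP10 they were CCNG2 (0.989), CASP14 (0.983) and RYBP (0.982), and for MMP9 CYP4X1 (0.954), EAPP (0.951) and LGALS8 (0.923). These correlations describe the same 8 libraries, 2 per gel, and the lowest MMP1 and MMP10 values both come from stiff IPN replicate 2. How far the correlations of MMP9 depend on its 0 was not tested.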

How the data were processed

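RNA-seq was analysed in 8 MCF10A libraries, 2 per gel. The authors trimmed reads with Trim Galore 0.3.3, aligned them to hg19, kept uniquely aligned reads, counted them per gene with HTSeq and deposited a whole-number signal, here called normalized counts (the paper names Bowtie2 as aligner, the submitters' processing notes TopHat2 2.0.13). The annotation is not given in the sources used here. Of the 25369 symbols, 28 had become dates and were not assigned to genes.

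Log2(normalized count + 1) was fitted in limma 3.58.1 (R 4.3.3, statmod 1.5.0) with a mean per gel, a variance trend and robust moderation, for genes with at least 10 in at least 2 libraries. The study names no block, so the fit with the trial was an alternative. The paper describes independent trials, and differences between trials correlated in all 6 pairs of gels (r from 0.278 to 0.819), so the numbers were taken to pair the libraries, less closely where stiff IPN is in the pair. P-values rest on the spread between these MCF10A libraries, pooled over the 4 gels and moderated across genes, and so depend on the model. Adjustment was Benjamini-Hochberg over all 13369 genes, threshold 0.05. Limma was tested on simulated data.

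Members and gene lists were chosen with earlier results of these data known. Fold changes are given for members called in either fit or not overlapping between groups. The difference of stiffness effects is given for MMP1, MMP2 and, added after its values were seen, TIMP1. Fold changes are also given for up to 3 called genes per list and comparison (ST14 and COL4A1 were added after their values were seen), and likeness for 3 genes. Lists covered other MMPs and TIMP4, the plasminogen system, activators and cofactors, ADAM and ADAMTS proteases, lysosomal proteases, matrix substrates, transcription factors and cell type markers. Alternatives were pseudocounts, filters, rescaling, the block, gels in pairs, plain moderation and leaving out each library.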

Additional observations from a re-analysis of the deposited data

Results flagged for a closer look

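The stiffness difference of MMP2 had opposite signs in the 2 kinds of gel in every trial. It was negative in the IPNs (-0.56 in trial 1 and -1.09 in trial 2) and positive in the collagen gels (0.73 and 0.61). The libraries of the collagen gels overlapped (438 and 219 in stiff col, 263 and 143 in soft col:rBM), and their difference of 0.67 was not called (adjusted p = 1 in both fits, and 0.533 to 1 over the alternatives). It lay between 0.17 and 1.17 when single libraries were left out without the block. The difference between these effects was 1.50 on the log2 scale (limma, SE 0.60 without the block and 0.43 with it), and its test missed the threshold without the block (adjusted p = 1) and with it (adjusted p = 0.346). Over all alternatives of both fits the adjusted p ran from 0.115 to 1. For TIMP1, chosen after its values were seen, the difference between the effects was 1.165 (limma with the block, SE 0.30, adjusted p = 0.304) and was not called in either fit.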

How the results depend on the processing

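Without the block, limma called 0 of the 8 genes in each comparison of gels under every alternative that kept this design, including those without a library. Over all genes it called 0 under these alternatives, except 4 genes with a pseudocount of 5 and 0 to 5 without single libraries (stiff col against stiff IPN), 0 to 3 without single libraries (collagen gels against IPNs), and 1 gene with 2 gels alone (stiff against soft IPN). With the replicate block, genes called rose to 511 (stiff against soft IPN), 330 (stiff col against stiff IPN), 3 (soft col:rBM against soft IPN), 124 (collagen gels against IPNs), 2 (difference of stiffness effects), 80 (stiff against soft gels) and 211 (F test), and of the 8 genes 1, 2, 0, 1, 0, 1 and 0 were called.

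The alternatives of the block fit were added after the data were seen. Without single libraries it called 0 to 2670 genes between the IPNs (8 genes examined here: 0 to 3), 36 to 2191 from stiff IPN to stiff col (0 to 4), 0 to 30 between the collagen gels, 0 to 21 between soft col:rBM and soft IPN, 0 to 1558 for collagen gels against IPNs (0 to 3), 0 to 658 for the difference of stiffness effects (0 to 1), 0 to 1933 for stiff against soft gels (0 to 3), 4 to 2010 in the F test (0 to 5) and 1208 to 5845 between trials (0 to 2). Between the IPNs 2670 genes were called without stiff IPN replicate 1, 1065 without stiff IPN replicate 2 and 0 without soft IPN replicate 2. A library left alone in its gel is assumed to vary like the others.

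Without trend or robust moderation the block fit called 35, 121, 0, 45, 0, 0 and 6 genes in the 7 comparisons that had calls, in the order above, and 0 of the 8 genes in each, TIMP2 between trials included. Without a filter it called 4 genes between the collagen gels, 14 for soft col:rBM against soft IPN, 242 for collagen gels against IPNs, and 6, 169 and 417 in the last 3. Of the 8 genes it then called 2 between the IPNs, 3 from stiff IPN to stiff col, 2 for collagen gels against IPNs and 3 in the F test. With at least 10 in every library it called 0, 50, 53 and 111 genes (soft col:rBM against soft IPN, collagen gels against IPNs, stiff against soft gels, F test); MMP1, MMP9 and MMP10 then drop out of the test, and MMP2 missed the threshold for collagen gels against IPNs, so 0 of the 8 were called in these and between the IPNs. For soft col:rBM against soft IPN, both pseudocounts and both rescalings gave 0 genes, and a pseudocount of 5 called 1 of the 8 in the F test. The causes were not tested, apart from the genes the filter removes. The 6 fold changes called among the 8 genes kept their sign when single libraries were left out with the block, whereas some that were not called changed sign. Rescaling moved no median of all genes by over 0.1. Depth limits MMP3, MMP13, MMP9 and the stiff IPN replicate 2 values of MMP1 and MMP10.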

Other observations

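Of 20 ADAM and ADAMTS proteases, which shed cell-surface proteins or cleave proteoglycans, 12 were tested and limma called 0 in the 4 pairs of gels compared. Of all genes 0% were called there without the block, and 3.82%, 2.47%, 0% and 0.0224% with it. ADAM15 was the most abundant, with 6594 to 11158 normalized counts. Between trials 3 of 12 were called, against 27.1% of all genes, ADAM19 (log2 difference -1.64) and ADAMTS6 (-0.81) lower and ADAMTS7 (0.68) higher in trial 2.

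Of 17 names listed for lysosomal proteases and their inhibitors 15 were in the table, all of them tested; the other 2, CTSL1 and CTSL2, are older names of CTSL and CTSV. With the block, 2 of the 15 were called lower in stiff than in soft IPN, against 3.82% of all genes. Cathepsin B (CTSB) had 24610 and 13758 normalized counts in soft IPN and 12532 and 6570 in stiff IPN, a fall by 1.02 on the log2 scale (limma, adjusted p = 0.0376 with the block and 0.617 without it, and 0.0208 to 0.999 over the alternatives of both fits). Cathepsin H (CTSH) was called lower (-0.72, adjusted p = 0.0376 with the block and 0.641 without it, and 0.0187 to 0.999), although the libraries of the IPNs overlapped (1293 and 669 in soft IPN, 729 and 436 in stiff IPN). Cathepsin D (CTSD) was called lower in the collagen gels than in the IPNs, with overlapping libraries (-0.56, adjusted p = 0.0486 with the block and 0.996 without it, and 0.0147 to 1). Between trials 5 of the 15 were called, against 27.1% of all genes, CTSB (-1.17), CTSH (-0.89) and CTSV (-0.69) lower and CTSD (0.65) and CTSC (0.42) higher in trial 2. CTSD and CTSC lie outside the naming rule and were chosen after their values were seen.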
